A study of Mus musculus with 2 samples.

Results

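The 8 genes described here act in Hedgehog signalling, from release of the ligand to the response in the nucleus: the co-receptor genes Gas1, Boc and Cdon, Disp1, Sufu, and the transcription factor genes Gli1, Gli2 and Gli3. They were taken by symbol, 8 of 30970 gene rows, from single-cell RNA sequencing of mouse yolk sac at stage E8.75. All embryos had the genotype Ttr-Cre/+; R26lsl-rtTA-EGFP/+, in which Cre under Ttr control can switch on a Rosa26 reporter, and there was no other genotype, treatment or time. Cells of 3 samples were labelled with oligonucleotide tags, pooled and sequenced together, and each tagged sample is 1 replicate here. The study's stated question was how ciliated yolk sac cells differ in their transcripts from the unciliated visceral endoderm lineage. No library of cells sorted for cilia or for the reporter was analysed here.

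Hedgehog ligands bind the receptor Patched, which in the absence of ligand holds back the membrane protein Smoothened. In vertebrates most steps after the receptor depend on the primary cilium, where Smoothened accumulates and the Gli factors are processed into activators or repressors. In the yolk sac, Indian hedgehog made by the visceral endoderm is known to reach the neighbouring mesoderm, where blood vessels and blood form.

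Cells fell into 5 classes by the share of their unique molecular identifiers (UMIs, single counted transcripts) that came from a few genes. Endoderm had at least 0.3% from Ttr, Apob and Apom, erythroid cells at least 3% from 7 globin genes, endothelium at least 0.04% from Cdh5, Ctla2a and Plvap, and mesoderm at least 0.03% from Hand1, Vcan and Foxf1. Mesoderm cells with 5 or more UMIs of Ttn, Myh6 and Tnnt2 were set apart as contractile mesoderm. None of the 8 genes was used in these gates. Foxf1 of the mesoderm gate, however, is a close relative of Foxf2, which is on the list of pathway targets used below. Whether this gate picks cells by their response to Hedgehog was not tested. Levels are given as CPM, the UMIs of a gene per 1000000 UMIs of all genes in the summed cells of a class and tagged sample, and 3 such sums make the mean ± SD of a class. Of 1817 cells, 1740 passed the filter, and 1502 of them were in 1 class: 559 endoderm, 157 mesoderm, 42 contractile mesoderm, 115 endothelium and 629 erythroid cells. A further 188 cells met no gate, and 50 met 2 or more gates. The 3 tagged samples held 460, 651 and 706 cells, with 22007477 to 33114758 UMIs each, and no barcode was shared between them. Each tagged sample held cells with at least 4 Xist UMIs and at most 1 Y-linked UMI (181 to 259 cells) and cells with at least 2 Y-linked UMIs and at most 1 Xist UMI (150 to 344 cells), although the design text speaks of 3 embryos. A tagged sample may therefore hold cells of more than 1 embryo, and p-values measure the spread between tagged samples only.

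Markers outside the gates were checked in each class. All 8 endoderm, all 6 endothelial and all 6 erythroid markers were highest in the class of that name. Of 6 contractile markers, 5 were highest in contractile mesoderm, and Acta2 was at 954 CPM in mesoderm and 945 in contractile mesoderm. Of 8 mesoderm markers, Col1a1, Col3a1 and Postn were highest in mesoderm, and Bmp4, Tbx20 and Hand2 in contractile mesoderm. Pdgfra was highest in endoderm, at 21.6 CPM against 16.2 in mesoderm, and Tbx4 had 1 UMI in all. The mesoderm list summed to 465 to 865 CPM in mesoderm and 25.4 to 38.1 in endoderm, whereas the endoderm list summed to 298 to 360 in mesoderm and 10883 to 13991 in endoderm. Lists of other cell types were read as well. Parietal endoderm genes (5 listed) summed to 94.5 to 316 in mesoderm, highest in tagged sample 2, and to 130 to 145 in endoderm, 27.9 to 40.8 in endothelium and 6.25 to 9.95 in erythroid cells. Trophoblast genes (6 listed, Tpbpa and Prl3d1 at 0 in mesoderm and endothelium) summed to 39 to 59.1 in mesoderm, 60 to 75.2 in endothelium, 36.8 to 44.8 in endoderm and 1.96 to 3.47 in erythroid cells. Blood progenitor genes (6 listed) summed to 92.6 to 159 in endothelium, with Gp9 and Ptprc at 0, and to 5.18 to 9.51 in mesoderm. The list of embryonic ectoderm and notochord reached at most 5.7 in any class. The part of these cell types in the levels below was not tested.

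In build GRCm38 the 8 genes lie on different chromosomes, except Gli2 with Disp1 and Gli3 with Gas1. The co-receptor genes are Gas1 (chr13:60174405-60177365, minus strand), Boc (chr16:44485049-44558897, minus) and Cdon (chr9:35421128-35507652, plus). Disp1 is at chr1:183086266-183221522 (minus) and Sufu at chr19:46396896-46488804 (plus). Gli1 is at chr10:127329882-127341974 (minus), Gli2 at chr1:118834132-119053619 (minus) and Gli3 at chr13:15463235-15730026 (plus), and all 8 are annotated as protein coding. On their own strand, Disp1 overlaps BC085271, Gli3 overlaps Gm48343, Cdon overlaps Gm25630 and Boc overlaps Mir3081. Gli1 overlaps Arhgap9 on the opposite strand. Reads in the shared stretches are uncertain, above all where the strand is the same.

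RefSeq promoter windows (build GRCm38.p6, 250 bases before to 50 after the annotated start) were matched by symbol for 6 of the 8 genes, namely Gli2, Gli3, Gas1, Cdon, Disp1 and Sufu, with 7 windows in all; Gli1 and Boc had no entry. The 250 upstream bases of 3 genes that were high in mesoderm and of Sufu, which was not, are given so that the sequences can be set beside the levels described next. Capitals mark the GC box GGGCGG or its reverse complement CCGCCC, the usual site of SP family factors, to which the factors named in the title of the study belong.
Gli2 promoter, chr1:119053620-119053869, minus strand: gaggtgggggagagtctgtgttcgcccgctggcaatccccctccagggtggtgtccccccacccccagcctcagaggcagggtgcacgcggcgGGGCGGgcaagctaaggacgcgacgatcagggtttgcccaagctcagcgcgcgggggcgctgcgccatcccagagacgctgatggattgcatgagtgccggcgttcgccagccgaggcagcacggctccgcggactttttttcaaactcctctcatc
Gli3 promoter, chr13:15463473-15463722, plus strand: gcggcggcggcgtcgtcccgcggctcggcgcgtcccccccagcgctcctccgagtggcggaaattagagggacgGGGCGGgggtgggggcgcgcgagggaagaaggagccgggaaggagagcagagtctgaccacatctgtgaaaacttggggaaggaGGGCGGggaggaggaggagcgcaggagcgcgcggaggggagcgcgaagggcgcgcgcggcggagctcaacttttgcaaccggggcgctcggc
Gas1 promoter, chr13:60177536-60177785, minus strand: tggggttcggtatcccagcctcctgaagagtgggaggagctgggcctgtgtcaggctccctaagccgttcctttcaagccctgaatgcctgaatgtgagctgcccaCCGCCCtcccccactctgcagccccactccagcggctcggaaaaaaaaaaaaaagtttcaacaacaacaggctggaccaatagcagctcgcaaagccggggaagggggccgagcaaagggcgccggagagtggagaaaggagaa
Sufu promoter, chr19:46396646-46396895, plus strand: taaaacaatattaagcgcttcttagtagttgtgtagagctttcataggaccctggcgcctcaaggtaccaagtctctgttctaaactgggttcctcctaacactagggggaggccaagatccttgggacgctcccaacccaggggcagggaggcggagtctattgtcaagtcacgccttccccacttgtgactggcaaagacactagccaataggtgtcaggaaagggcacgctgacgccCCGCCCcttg

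Over the full 300-base windows, Gli3 had 2 GC boxes, and Gli2, Gas1 and Sufu had 1 each. Cdon and both windows of Disp1 had 0. The Cdon window, the Gli3 window and 1 of the Disp1 windows lie inside the GENCODE gene span, away from its first start. The Gli3 bases printed above thus lie past the GENCODE start at 15463235. A GC box on either strand was present in 35.7% of 32851 windows of the same length. The GLI consensus GACCACCCA, searched on both strands as well, was in 0 of the 7 windows and in 0.253% of all windows. Neither motif contains the other. These counts describe letters in short windows and say nothing about binding.

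The ligand gene Ihh was read mainly in endoderm. Its level was 30.2, 32.9 and 39 CPM in the 3 endoderm sums, against 0, 0 and 0 in mesoderm. With 0 UMIs in mesoderm and 1102 in endoderm, Ihh was at least 61.3-fold lower in mesoderm, taking 3 counts over the group as the floor. Shh, the ligand of midline tissues, had 0 UMIs in all 5 classes, and Dhh, the third family member, had 24 UMIs in erythroid cells, 6 in endoderm and 0 in the other classes.

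**Figure D1:**
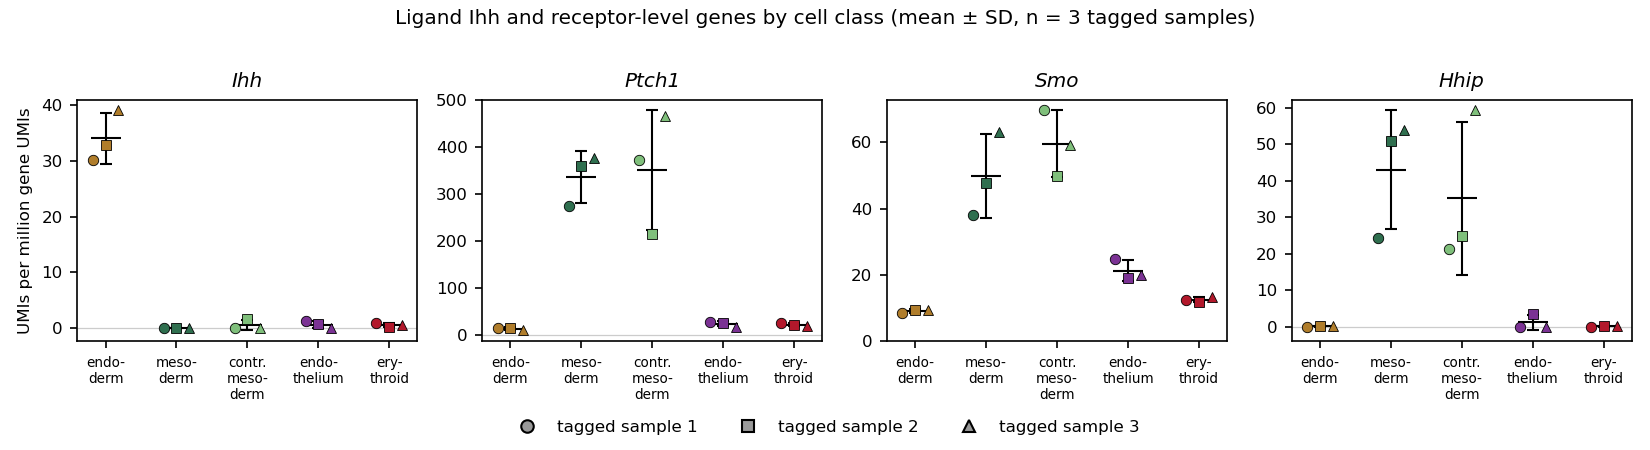
Level of Ihh, Ptch1, Smo and Hhip (y axis, CPM, linear scale) in 5 cell classes (x axis); points are the 3 tagged samples, horizontal marks means and bars SD. Ihh is high in endoderm only, with a mean of 34, while Ptch1 (337 in mesoderm, 14.3 in endoderm), Smo and Hhip are highest in the mesoderm classes.

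Mesoderm stood apart from endoderm for most of the 8 genes. In edgeR's quasi-likelihood test on the sums per class and tagged sample, 6 of 8 were higher in mesoderm at a Benjamini-Hochberg adjusted p under 0.05 over 10803 genes, and none was lower. Over all genes tested, 28.1% were called higher and 31.5% lower in that comparison. The 6 were Gli1, Boc, Gas1, Gli2, Gli3 and Cdon, and Disp1 and Sufu were not called. The median log2 difference over the 8 genes was 4.85, beside -0.04 over all genes. Of all calls 47.2% were higher, and 61.5% with scaling by library size alone, which moved the median of all genes to 0.20 and left the calls of the 8 genes as they were. In sums of cells, fewer expressing cells and less RNA per cell cannot be told apart.

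Of the co-receptors, Gas1 encodes a protein anchored in the membrane by a lipid that binds ligand together with Patched. Gas1 was at 23.8, 29 and 19.8 CPM in mesoderm and at 0.336, 0.624 and 0.872 in endoderm. All mesoderm sums lay above all endoderm sums, and the log2 difference was 5.02 ± 0.32 (SE, n = 3 per class; edgeR adjusted p = 1.03e-07). Gas1 was also high in contractile mesoderm, with 25.2, 35.9 and 9.25 CPM, and intermediate in endothelium, with 4.16, 6.62 and 0.8. The third endothelial sum fell inside the erythroid range of 0.373 to 1.31, so that the ranges of these neighbours in the order overlapped. Single mesoderm cells held up to 11 Gas1 UMIs.

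Boc and Cdon encode related immunoglobulin and fibronectin repeat proteins of the cell surface. Boc was at 9.51, 9.85 and 13.7 CPM in mesoderm, and at 0.112, 0.208 and 0 in endoderm. It was all but limited to the mesoderm classes, which held 69% (mesoderm) and 21.8% (contractile mesoderm) of its 87 UMIs in the 5 classes. The log2 difference between mesoderm and endoderm was 6.05 ± 0.49 (SE; edgeR adjusted p = 8.65e-07), and the ratio of pooled levels was 89.9 with a 95% counting interval of 33.3 to 341.

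Cdon was read more broadly. Its 3 mesoderm sums were at 10.1, 19.7 and 27.5 CPM, its endoderm sums at 2.35, 2.29 and 1.53, its endothelial sums at 3.56, 2.21 and 1.6 and its erythroid sums at 0.927, 0.56 and 0.655. The mesoderm sums were above all others outside contractile mesoderm, the endothelial and endoderm ranges overlapped, and erythroid sums lay below both. The log2 difference of Cdon between mesoderm and endoderm was 2.96 ± 0.34 (SE; edgeR adjusted p = 1.25e-05), the smallest among the 6 genes that were called. The mesoderm sums also differed among themselves: the exact Poisson 95% interval was 5.88 to 16.2 in tagged sample 1 and 20.4 to 36.3 in tagged sample 3, and these did not overlap.

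Disp1 encodes the membrane transporter that releases lipid-modified ligand from the cells that make it. Its levels lay closer together across classes, with 4.75, 4.15 and 4.95 CPM in mesoderm and 3.69, 2.36 and 2.4 in endoderm, the class that makes Ihh. Mesoderm sums were above endoderm sums without overlap, yet the log2 difference of 0.49 had a 95% interval of -0.24 to 1.23 and an edgeR adjusted p of 0.225. In contractile mesoderm Disp1 was at 3.88, 6.24 and 9.25 CPM, in endothelium at 2.97, 2.94 and 4, and in erythroid cells at 2.08, 1.4 and 1.61, the lowest of the 5 classes. Of the 190 Disp1 UMIs in the 5 classes, 46.8% were in endoderm and 26.8% in erythroid cells, the classes with most cells.

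Sufu encodes the cytoplasmic protein that binds Gli factors and restrains them. It was nearly level across 4 classes, at 13.5, 12.5 and 13.1 CPM in endoderm, 14.3, 9.85 and 15.4 in mesoderm, 9.7, 14 and 14.8 in contractile mesoderm and 12.5, 12.5 and 9.6 in endothelium. Erythroid sums were lower, at 7.18, 4.67 and 3.69, with no overlap with the other 4 classes. Between mesoderm and endoderm the log2 difference of Sufu was -0.23 with a 95% interval of -0.65 to 0.20 (edgeR adjusted p = 0.338). With scaling by library size alone the estimate was 0.01, while the median over all genes moved from -0.04 to 0.20.

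Gli1, whose transcription is itself raised by the pathway and which encodes an activator, was read almost only in the mesoderm classes. It was at 8.91, 11.9 and 9.9 CPM in mesoderm, 9.7, 9.36 and 5.55 in contractile mesoderm and 0.112, 0.139 and 0 in endoderm. Endothelium held 0 Gli1 UMIs in 115 cells, and erythroid cells held 7 in 629 cells. The log2 difference between mesoderm and endoderm was 6.30 ± 0.49 (SE; edgeR adjusted p = 5.85e-07), and the pooled ratio of 112 had a counting interval of 36.4 to 559 because endoderm held 3 UMIs.

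Gli2, the main activator form in many tissues, was at 5.94, 9.33 and 14.8 CPM in mesoderm and at 0.448, 0.277 and 0.109 in endoderm. Its log2 difference was 4.85 ± 0.48 (SE; edgeR adjusted p = 4.44e-06). Endothelium held 1 Gli2 UMI and erythroid cells 5, all of these erythroid UMIs in tagged sample 3.

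Gli3, which in many tissues serves mostly as a repressor, was at 23.2, 20.2 and 14.3 CPM in mesoderm and at 0.895, 0.624 and 0.109 in endoderm. Its log2 difference was 4.84 ± 0.41 (SE; edgeR adjusted p = 1.24e-06). Unlike Gli1 and Gli2, it had clear counts in endothelium, at 6.53, 7.35 and 10.4 CPM, which lay below all mesoderm sums and above all endoderm and erythroid sums.

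**Figure D2:**
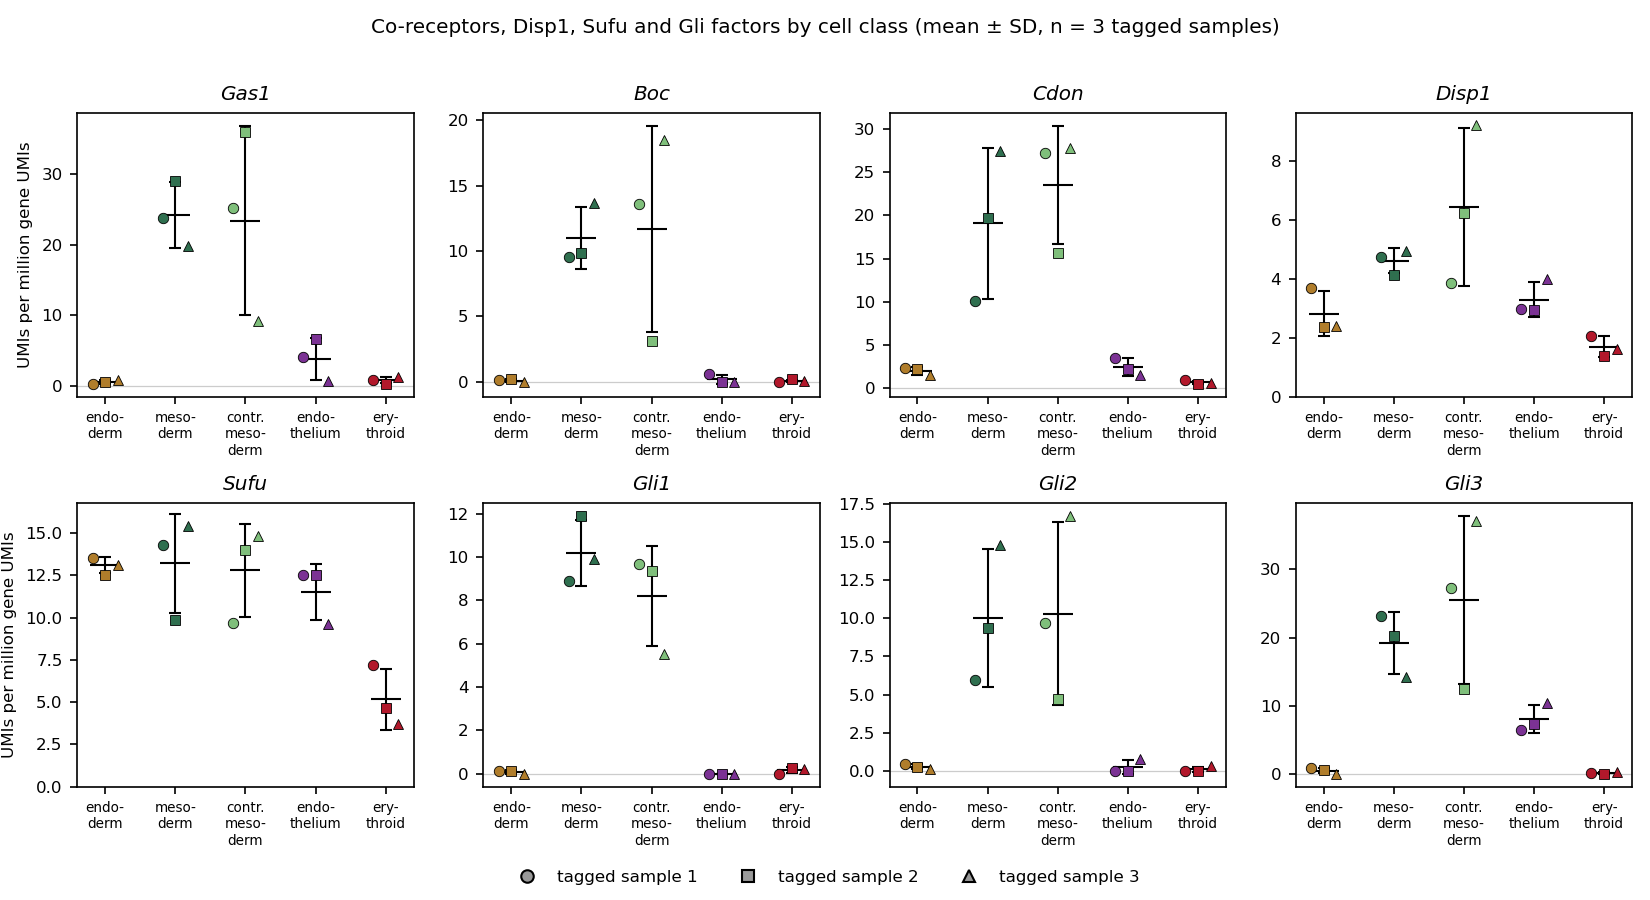
Level of each of the 8 genes (y axis, CPM, linear scale, own range per panel) in 5 cell classes (x axis); points are the 3 tagged samples, horizontal marks means and bars SD. Gas1, Boc, Cdon, Gli1, Gli2 and Gli3 are high in the mesoderm classes, Gli3 is also raised in endothelium at a mean of 8.09, and Sufu is near 13 in mesoderm and endoderm (13.2 and 13.1).

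Few endoderm cells held Gli UMIs, and these cells were often called as doublets, droplets with the RNA of 2 cells. Of the 30 UMIs of Gli1, Gli2 and Gli3 in 559 endoderm cells, 23 were in the 29 endoderm cells that Scrublet called. The same 29 cells held 29 of the 422 Sufu UMIs and 7 of the 89 Disp1 UMIs. Without the Scrublet calls the log2 differences between mesoderm and endoderm were 7.35 for Gli1, 7.27 for Gli2, 6.44 for Gli3 and 7.43 for Boc, all larger than with these cells, and the same 6 genes were called.

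Endothelium was compared with mesoderm next, the other class of the yolk sac that derives from mesoderm and lines vessels. Of the 7 genes tested, 6 were higher in mesoderm by edgeR's test and none was lower, where 14.5% of 8788 genes were called higher and 18.4% lower. Library size scaling moved the higher share of all calls from 44.1 to 56.2% and the median of all genes from 0.01 to 0.12, with the same 6 genes called. Disp1 did not pass the filter on low counts, and Sufu differed by 0.06 on the log2 scale with a 95% interval of -0.55 to 0.68 (edgeR adjusted p = 0.892). Gli1 had 56 UMIs in mesoderm and 0 in endothelium, which makes it at least 14.8-fold higher in mesoderm (edgeR adjusted p = 6.38e-05). Gli2 and Boc had 1 UMI each in endothelium, and their pooled ratios were 43.5 (95% counting interval 7.49 to 1749) and 47.4 (8.2 to 1905). Gas1 was higher by 2.49 ± 0.40 and Cdon by 2.77 ± 0.47 on the log2 scale (SE; edgeR adjusted p = 0.000242 and 0.000368).

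Gli3 differed least of the 6, by 1.15 ± 0.31 on the log2 scale (SE; edgeR adjusted p = 0.0103). By the same edgeR test that call was lost without tagged sample 1 (0.86, edgeR adjusted p = 0.0753) and without tagged sample 2 (1.03, adjusted p = 0.103). In mesoderm Gli3 made up 60.9, 48.8 and 36.6% of the UMIs of the 3 Gli genes, and in endothelium 100, 100 and 92.9%. The pooled share was 48.4% of 215 Gli UMIs in mesoderm and 97.1% of 35 in endothelium, with exact binomial 95% intervals of 41.5 to 55.3% and 85.1 to 99.9%. The ranges did not overlap (exact permutation test over the 3 + 3 sums, two-sided p = 0.1, the smallest p that 3 against 3 allows). Endothelium had 10 to 14 Gli UMIs per tagged sample, under the minimum of 20 set for that comparison, and it was admitted with a minimum of 10 that was chosen after seeing the data.

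**Figure D3:**
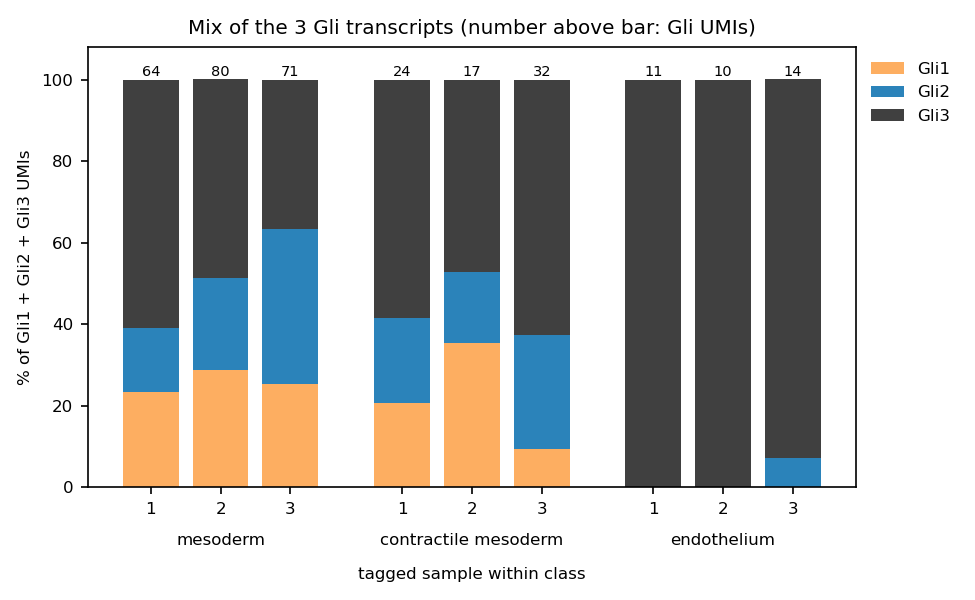
Share of Gli1, Gli2 and Gli3 in the summed UMIs of the 3 genes (y axis, %) for each tagged sample of mesoderm, contractile mesoderm and endothelium (x axis); the number above a bar is the count of Gli UMIs behind it. Gli3 takes 36.6 to 60.9% in mesoderm and 92.9 to 100% in endothelium, where each bar rests on 10 to 14 UMIs.

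Markers of the other class were present at low levels on each side of that comparison. The mesoderm list summed to 46.3 to 64 CPM in endothelium, with 7 of 8 genes read and Tbx4 at 0. The endothelium list summed to 44.6 to 64.9 in mesoderm, with 5 of 6 genes read and Emcn at 0. Bmp4 made up most of the first sum, at 38.2 CPM over the pooled endothelial cells, with the other genes read at 1.16 to 3.73. Tek made up most of the second, at 36.1 CPM over the pooled mesoderm cells, with Kdr at 10.5 and the other genes read at 0.921 to 4.79. Gli1 was at 0 in the same endothelial cells. At 10.3 CPM over the pooled mesoderm cells, Gli1 was too low for this count to show whether mesoderm RNA was present. Whether mesoderm RNA adds to the Gas1 and Cdon levels of endothelium was not tested.

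Against endoderm, endothelium was higher for Gli3 alone among the 4 genes tested. The log2 difference of Gli3 was 3.68 ± 0.51 (SE; edgeR adjusted p = 3.85e-05), in a comparison where 28.6% of 10694 genes were called higher and 31.9% lower. Cdon, Disp1 and Sufu had log2 differences of 0.17, 0.11 and -0.29 with 95% intervals of -0.87 to 1.21, -0.79 to 1.01 and -0.73 to 0.14. Gli1, Gli2, Gas1 and Boc did not pass the filter. For Gas1 the pooled ratio of endothelium to endoderm was 6.44 with a counting interval of 3.17 to 12.9, but its 3 + 3 sums overlapped (exact permutation test, two-sided p = 0.2). Under 3 alternatives Gas1 was tested and called higher by edgeR: with no low-count filter (2.45, adjusted p = 0.000235), with all classes in 1 fit (2.50, adjusted p = 0.00371) and without tagged sample 3, in which endothelium held 1 Gas1 UMI (3.20, adjusted p = 0.00197).

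Against erythroid cells, all 8 genes were higher in mesoderm by edgeR's test, where 35.7% of 9525 genes were called higher and 32% lower. Library size scaling moved the higher share of all calls from 52.8 to 75.8% and the median of all genes from 0.02 to 0.43, with the same 8 called. The log2 differences were 6.20 for Boc, 5.60 for Gli3, 5.46 for Gli2, 5.03 for Gli1, 4.41 for Cdon and 4.28 for Gas1, with edgeR adjusted p between 1.31e-07 and 6.36e-06. Those of Disp1 and Sufu were smaller, at 1.09 ± 0.33 and 1.06 ± 0.28 (SE; edgeR adjusted p = 0.0113 and 0.00566). The call of Disp1 was lost with DESeq2 (adjusted p = 0.0563), with no low-count filter, and without tagged sample 2 or 3 (adjusted p = 0.0632 and 0.0917). That of Sufu was lost with thinned sums and without tagged sample 3 (0.69, edgeR adjusted p = 0.121).

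Contractile mesoderm and mesoderm were not told apart by these genes. None of the 7 genes tested was called in either direction, where edgeR called 30 of 7816 genes, or 0.384%, and 78 with the tagged sample as a block. DESeq2 called none of the 7 genes either. At an unadjusted p under 0.05 by edgeR the count among the 7 genes was also 0. The share of all genes under that unadjusted threshold was not counted, so this 0 is not a result about the 7 genes. The log2 difference of contractile mesoderm minus mesoderm was -0.34 for Gli1 (95% interval -1.20 to 0.51), -0.03 for Gli2 (-1.09 to 1.03) and 0.35 for Gli3 (-0.42 to 1.11). It was -0.04 for Gas1 (-0.82 to 0.73), 0.00 for Boc (-1.02 to 1.03), 0.24 for Cdon (-0.57 to 1.05) and -0.05 for Sufu (-0.79 to 0.70). These intervals leave room for differences of up to about 1 on the log2 scale in either direction for Gli2 and Boc. Disp1, below the filter, had 11 UMIs in 42 contractile cells and 25 in 157 mesoderm cells. The Gli mix was not told apart either: Gli3 took 58.3, 47.1 and 62.5% of Gli UMIs in contractile mesoderm, overlapping the mesoderm range (exact permutation test, two-sided p = 0.6). These shares rest on 24, 17 and 32 Gli UMIs, so that contractile mesoderm too missed the minimum of 20. It was admitted with the minimum of 10 chosen after seeing the data. So few counts cannot show that the mixes are alike.

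**Figure D4:**
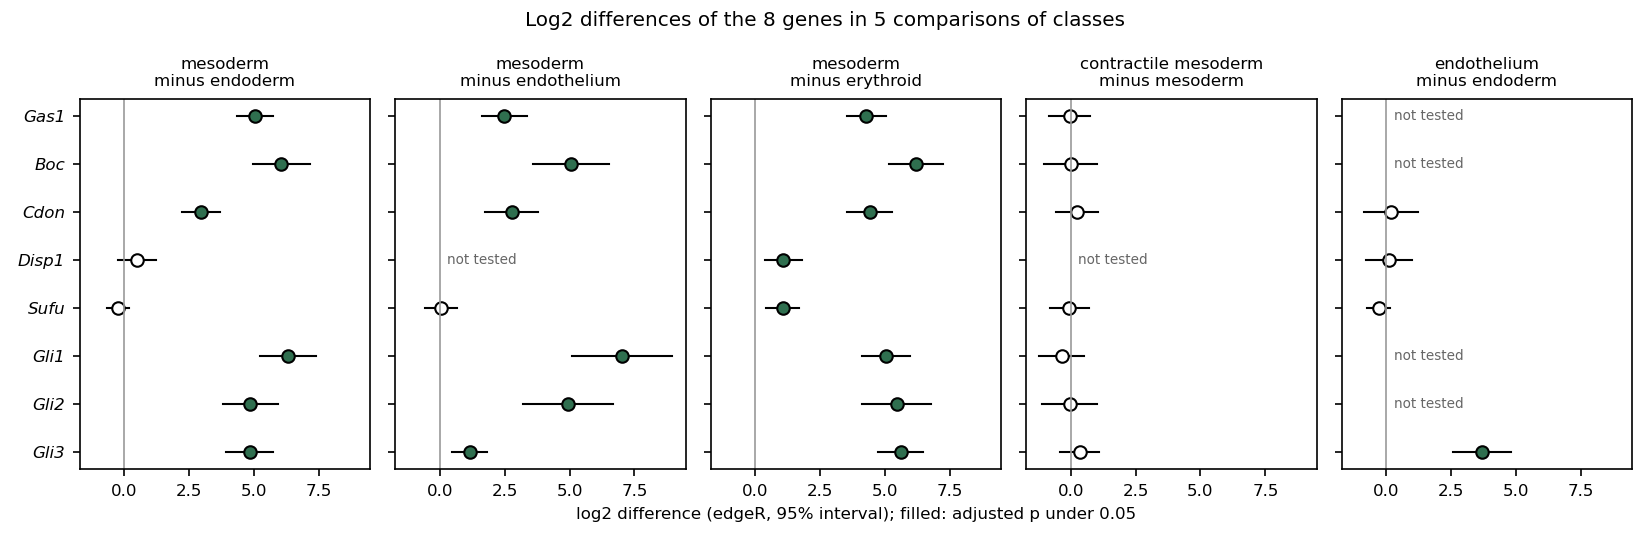
Log2 difference of each of the 8 genes (x axis, edgeR estimate with 95% interval) in 5 comparisons of cell classes; filled points have an adjusted p under 0.05, open points do not, and genes under the low-count filter are marked as not tested. The 6 genes from Gas1 to Gli3 other than Disp1 and Sufu lie at 2.96 to 6.30 for mesoderm minus endoderm, and every point of contractile mesoderm minus mesoderm has an interval that spans 0.

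At the level of single cells, shares of cells with at least 1 UMI were compared after every cell had been thinned to 20000 UMIs, since median depth was 56338 UMIs in endoderm, 34923 in mesoderm, 35699 in endothelium and 47771 in erythroid cells. That left out 24 of 157 mesoderm cells and 48 of 559 endoderm cells. Gas1 and Cdon were each seen in 30.8% of 133 mesoderm cells (exact binomial 95% interval 23.1 to 39.4%), Gli3 in 26.3%, and Boc, Gli1 and Gli2 each in 18.8%. Erythroid cells were taken as the background, a choice that was not tested. Their shares were 1.46% for Gas1, 0.812% for Cdon and for Gli3, and 0.325% for Gli1 and for Gli2. Boc was seen in 0 of 616 erythroid cells. For Boc a floor of 3 cells is a share of 0.487%, and the exact interval reaches 0.597%. The endoderm shares of Gli1, Gli2, Gli3 and Gas1, at 0.196, 0.587, 0.783 and 1.17%, had intervals that overlapped the erythroid ones. Unthinned, Gli3 was seen in 38.9% of mesoderm cells and 23.5% of endothelial cells.

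Endothelial cells held Gli3 in 16.7% of 84 cells (interval 9.42 to 26.4%), above the erythroid share, and Gas1 in 8.33% (3.42 to 16.4%). Gli1, Gli2 and Boc were each seen in 0 of 84 endothelial cells, for which a floor of 3 cells is a share of 3.57% and the exact interval reaches 4.3%; these limit cells with a UMI, not cells that express the gene. Cdon was seen in 4.7% of endoderm cells (3.03 to 6.91%), a share above the erythroid interval of 0.264 to 1.88%. Sufu was seen in 21.9% of endoderm, 21.8% of mesoderm and 22.6% of endothelial cells, and in 9.74% of erythroid cells (7.52 to 12.4%). Intervals cover counting error only.

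**Figure D5:**
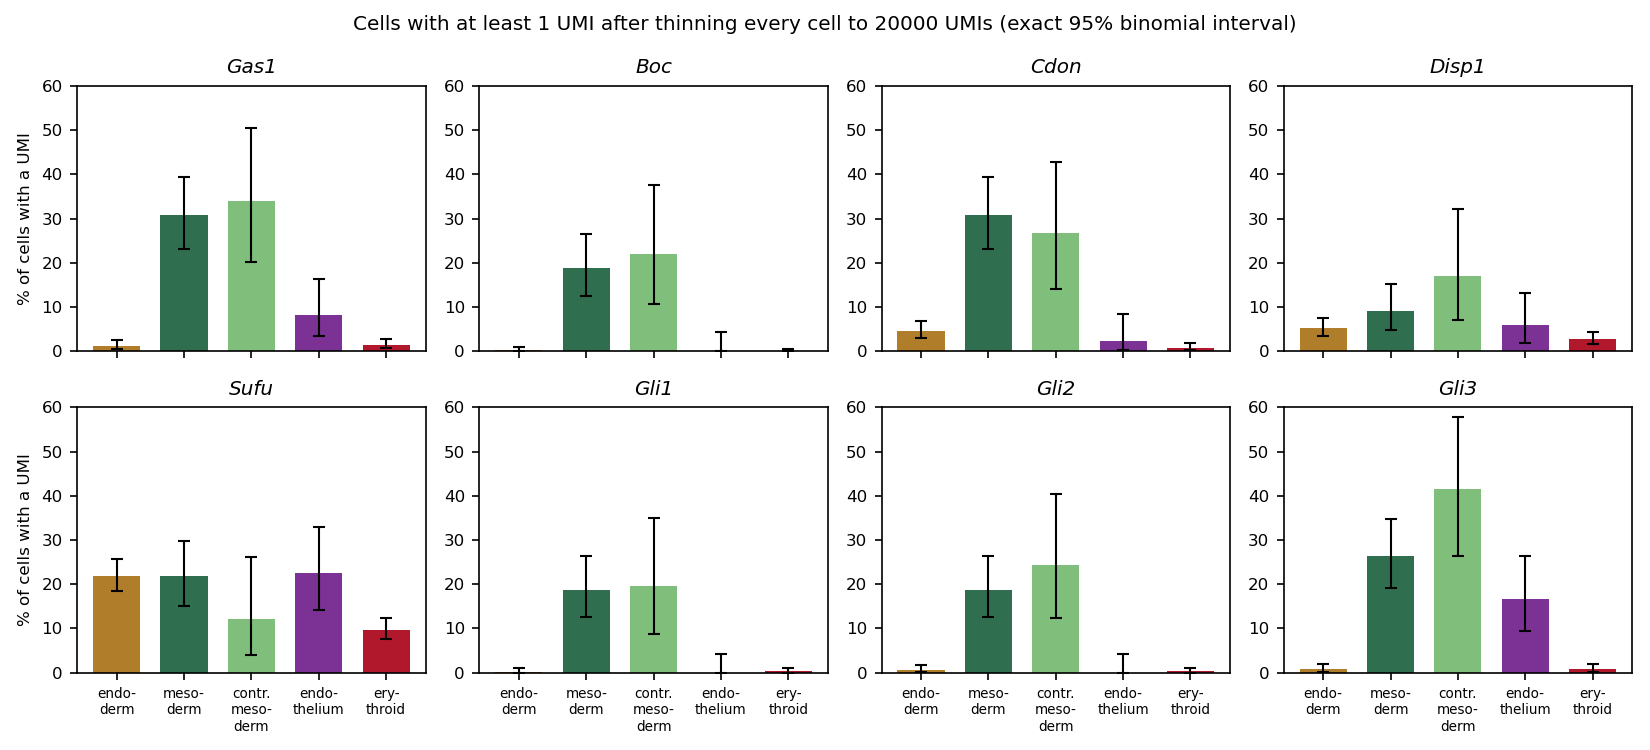
Share of cells with at least 1 UMI of each gene (y axis, %) after thinning to 20000 UMIs per cell, in 5 classes (x axis); error bars are exact binomial 95% intervals over cells. Gas1 and Cdon reach 30.8% in mesoderm, Gli3 16.7% in endothelium, and Sufu is near 22% in endoderm, mesoderm and endothelium (21.9, 21.8 and 22.6%).

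In the mesoderm classes, cells with several of the 8 genes were about as frequent as the shares of the single genes give. After thinning, 33 of 133 mesoderm cells (24.8%) held UMIs of 3 or more of the 8 genes, where detection of each gene independently at its own share would give 24.4%. In contractile mesoderm the count was 13 of 41 cells (31.7%, beside 31.2%). The counts were 2 of 511 in endoderm (0.391%, beside 0.129%), 0 of 84 in endothelium (beside 0.863%) and 0 of 616 in erythroid cells (beside 0.0163%). These counts are too few to be compared with the shares beside them. At least 1 of the 8 was seen in 82.7% of mesoderm, 47.6% of endothelial, 30.9% of endoderm and 15.3% of erythroid cells.

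Pooled Gli levels were also read on both sides of the mesoderm gate. In the 37 mesoderm cells just above the gate, with 0.03 to 0.06% of UMIs from Hand1, Vcan and Foxf1, the 3 Gli genes summed to 23.8 CPM. That level came from 36 UMIs, against 39.6 CPM from 215 UMIs over all mesoderm cells, the 37 among them. In 28 cells just below the gate, with at least 0.015% and in no other class, the sum was 9.74 from 12 UMIs. These values pool the 3 tagged samples, and their differences were not tested.

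Other genes of the pathway were described from a list of 54 grouped by role. In mesoderm against endoderm, 37 of them passed the filter, 22 were higher and 5 lower by edgeR's test, with a median log2 difference of 0.74. The shares over all genes, against which this count and those by role below are to be read, were 28.1% higher and 31.5% lower. Among receptors and binding proteins, Ptch1, which encodes the receptor and is a target of the pathway, was at 274, 360 and 378 CPM in mesoderm and at 15.9, 15.9 and 11.1 in endoderm, a log2 difference of 4.31 ± 0.16 (SE; edgeR adjusted p = 1.58e-09). Hhip, a target that encodes a ligand-binding inhibitor, was at 24.4, 50.8 and 53.9 in mesoderm and at 0, 0.277 and 0.218 in endoderm, a log2 difference of 7.50 ± 0.45 (SE; edgeR adjusted p = 7.09e-08). Smo, which encodes Smoothened, was at 38, 47.7 and 63.2 in mesoderm and at 8.39, 9.5 and 9.48 in endoderm, a log2 difference of 2.20 ± 0.18 (SE; edgeR adjusted p = 8.55e-07). Lrp2, which encodes a large endocytic receptor that binds many ligands, went the other way, at 56.4, 77.2 and 71.5 CPM in mesoderm and 227, 178 and 177 in endoderm, a log2 difference of -1.73 ± 0.13 (SE; edgeR adjusted p = 4.21e-07).

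Ptch1 and Smo were also above endoderm in endothelium, by 0.67 ± 0.21 and 1.11 ± 0.19 on the log2 scale (SE, with edgeR adjusted p = 0.0157 and 0.000279). Unlike Gli3, Ptch1 in endothelium, at 29.1, 26.5 and 18.4 CPM, overlapped erythroid cells, at 26.9, 21.4 and 20.1. Smo in endothelium, at 24.9, 19.1 and 20 CPM, lay above the erythroid sums of 12.3, 11.9 and 13.2. The call of Ptch1 was lost with thinned sums, with all classes in 1 fit and without tagged sample 1 (0.57, edgeR adjusted p = 0.0718). Lrp2 was lower in endothelium, with a log2 difference of -5.29 ± 0.22 (SE; edgeR adjusted p = 4.34e-10). Ihh, with 3 UMIs in endothelium, had a log2 difference of -5.69 ± 0.41 there (SE; edgeR adjusted p = 7.3e-08).

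Of 10 genes for release and spread of ligand, 5 were tested in mesoderm against endoderm, with 2 higher and 2 lower. Gpc3 and Gpc6, which encode glypicans of the cell surface, went in opposite directions, with log2 differences of -1.56 ± 0.11 and 3.37 ± 0.27 (SE; edgeR adjusted p = 2.24e-07 and 6.62e-07). Of 12 cilium-linked regulators, 6 were tested, 3 were higher and none was lower. Kif3a, a motor subunit of intraflagellar transport, and Arl13b, a small GTPase of the ciliary membrane, were higher by 1.77 ± 0.18 and 0.74 ± 0.15 (SE; edgeR adjusted p = 4.29e-06 and 0.00094). Of 14 genes for kinases and turnover, 13 were tested, 7 were higher and 1 was lower, and Csnk1e and Gsk3b, both kinases that phosphorylate pathway proteins, were higher, at means of 61.7 against 6.31 and 107 against 45.5 CPM (edgeR adjusted p = 1.59e-08 and 4.43e-06). Of 10 listed targets, 8 were tested and 7 were higher, among them Bmp4, a signalling ligand gene, and Ccnd2, a cyclin gene, by 5.71 ± 0.16 and 4.83 ± 0.14 (SE; edgeR adjusted p = 1.97e-10 and 2.27e-10). Bmp4 is also among the mesoderm markers above, and cell type and pathway cannot be told apart in its difference.

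In mesoderm against endothelium 12 of 34 listed genes tested were higher and 5 lower, beside 14.5% and 18.4% of all genes. Of the 8 targets tested there, 5 were higher in mesoderm and 2 lower. Against erythroid cells 27 of 35 listed genes were higher and 5 lower, beside 35.7% and 32% of all genes. Of 34 tested between contractile mesoderm and mesoderm, 1 was called, the cyclin gene Ccnd1, which was lower in contractile mesoderm and is named after its values were seen. In endothelium against endoderm 17 of 37 were higher and 9 lower, beside 28.6% and 31.9% of all genes. Of the 8 targets tested in that comparison, 6 were higher in endothelium and 1 lower. None of the 5 cilium-linked regulators tested was called between mesoderm and endothelium.

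Across the 15 sums, the genes most like each member were found by Pearson correlation of log2(CPM + 1) over 10934 genes, for the 5 members with at least 100 UMIs. The sums share 3 libraries and follow the same 5 classes, so these values describe the class pattern only. For Gli3 they were Hoxb6, a homeobox gene (r = 0.986), Kirrel (0.985) and Timp2, a metalloproteinase inhibitor gene (0.984). For Gas1 they were Tspyl4 (r = 0.957), Numbl (0.956) and Ccdc80 (0.954), and for Cdon they included Lsp1 (0.980) and Actg2, a smooth muscle actin gene (0.977). For Disp1 they were Virma (r = 0.935), Cdc25c (0.932) and 1810030O07Rik (0.931), and for Sufu Snd1 (0.933), Copg1 (0.933) and Zfp516 (0.932). Among the 8 genes themselves, r was 0.97 between Boc and Gli2, 0.94 between Gli1 and Gli2, 0.78 between Gli1 and Gli3 and 0.35 between Gli1 and Sufu.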

How the data were processed

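Single-cell RNA sequencing was made from yolk sac cells at stage E8.75, with 3 tagged samples pooled in 1 run. The deposited values are raw UMI counts per gene and cell barcode, which the authors produced with Cell Ranger (version 6.1.2, per the file headers); the build, GRCm38 (mm10), is named per the submitters' processing notes. Which filters were applied before deposit is not stated. The library of tag reads was not used here. The 8 genes, the gates and all lists were chosen with earlier results of these data known.

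Cells were kept if 500 or more genes were read and no more than 10% of UMIs were mitochondrial (443, 614 and 683 per tagged sample), and cells in 2 or more classes were left out. Doublets were otherwise kept; Scrublet (scanpy 1.11.5), run per tagged sample, called 21, 30 and 38 cells, whose removal is an alternative. UMIs were summed per class and tagged sample and tested with edgeR 4.0.16 (quasi-likelihood, TMM scaling, filterByExpr, Benjamini-Hochberg adjustment over all genes tested, threshold 0.05), with only the 2 classes compared in each fit. The SE of a log2 difference was taken as its size divided by the square root of the F statistic of the test. The 95% interval was built from this SE, symmetric about the estimate. Both are approximate and may be too narrow for genes with few UMIs in a class. The fits were first tested on simulated data. Where 1 class had few UMIs, the ratio of pooled levels is given with an exact 95% counting interval; counts at 0 were set to a floor of 3 over the group. Gene positions came from GENCODE, whose table matched 30900 of 30970 gene IDs. R 4.3.3, Python 3.11.15 and scipy 1.17.1 were used.

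All 8 genes are described. Of the pathway list, the ligand and receptor genes are named, and for each other role the 2 genes with the smallest p in mesoderm against endoderm. The genes most like each member are the 3 with the highest correlation, outside gates and members, with at least 100 UMIs. Lrp2 was added after its values were seen. Some genes that these rules name are not reported here. Sums with the same number come from the same tagged sample, so the numbers pair them by construction; deviations from class means correlated at up to 0.15 over genes.

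Alternatives were the tagged sample as a block, DESeq2 1.42.0, library size or RLE scaling, no low-count filter, all classes in 1 fit, sums thinned to the smallest, gate genes left out, a stricter cell filter (1000 genes or more, up to 5% mitochondrial), Scrublet calls removed, doubled gates, and each tagged sample left out.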

Additional observations from a re-analysis of the deposited data

Results flagged for a closer look

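The 188 cells that met no gate entered no comparison. For 2 of the 8 genes, Gli3 and Boc, every sum of these cells lay above every erythroid sum. The share of all genes that lie apart in this way was not counted, so this count is not a result about the 8 genes. Gas1 and Sufu were also higher in the cells of no class in each tagged sample, but their ranges overlapped those of erythroid cells. Gli3 was at 1.06, 2.92 and 2.68 CPM in the cells of no class, with a mean of 2.22 from 17 UMIs, and at 0.232, 0.0934 and 0.417 in erythroid cells. Boc was at 0.265, 0.834 and 0.895, with a mean of 0.665 from 5 UMIs, and at 0, 0.187 and 0.0596 in erythroid cells. The mesoderm marker list summed to 15.9 to 71.7 CPM in the same cells, against 3.71 to 7.66 in erythroid cells. Other lists were higher there too: parietal endoderm genes summed to 59.4 to 1117 (6.25 to 9.95 in erythroid cells), trophoblast genes to 19.2 to 164 (1.96 to 3.47) and blood progenitor genes to 105 to 162 (61.1 to 88.3). The part of these cell types in the Gli3 and Boc levels was not tested.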

How the results depend on the processing

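Of 458 log2 differences of the 8 genes under the alternatives, 428 kept their direction and side of the threshold, 8 lost a call and 22, none of them called, changed sign. With the tagged sample as a replicate block, 78 genes in place of 30 were called between contractile mesoderm and mesoderm, Boc was at -0.02, and no call of the 8 genes changed. That count was 51 with DESeq2, 333 with no low-count filter, 51 with all classes in 1 fit, and 11 to 48 with 1 tagged sample left out. Genes called between mesoderm and endothelium ranged from 1845 to 3073 with 1 left out. With thinned sums, 3 of the 8 genes were called there, since Gli1, Gli2 and Boc were not tested, and 0 in endothelium against endoderm, where Gli3 was not tested. In the latter, 2 were called with no filter and with all classes in 1 fit, and 1 to 2 with 1 tagged sample left out, since Gas1 was then tested.

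Sufu was at 0.01 against endoderm with library size scaling; against endothelium it was at -0.04 with thinned sums, -0.07 with doubled gates and -0.15 to 0.27 with 1 tagged sample left out. In contractile mesoderm minus mesoderm, Gli2 was at 0.00 with DESeq2 and 0.04 with doubled gates, Boc at -0.04 with no filter, -0.01 with all classes in 1 fit, -0.00 with the stricter cell filter and -0.16 with doubled gates, and Sufu at 0.02 without Scrublet calls. With 1 tagged sample left out, these differences ranged from -0.26 to 0.31 for Gli2, -0.20 to 0.75 for Gli3, -0.37 to 0.19 for Gas1, -0.33 to 0.43 for Boc, -0.18 to 0.51 for Cdon and -0.30 to 0.17 for Sufu. In endothelium minus endoderm, Disp1 was at -0.02 without Scrublet calls, and the ranges were -0.18 to 0.40 for Cdon and -0.13 to 0.40 for Disp1. Apart from genes that were not tested, the cause was not tested. With 1 tagged sample left out, 2 sums per class remain. Contractile mesoderm held 13 to 15 cells per tagged sample, which limits its precision.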
